A study of Rattus norvegicus with 12 samples.

Results

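The mitochondrial ribosome makes the few respiratory chain subunits that mitochondrial DNA encodes. Its RNAs come from mitochondrial DNA, whereas all of its proteins are encoded in the nucleus, made on cytosolic ribosomes and imported. The small subunit binds the mRNA and decodes it, and the large subunit holds the peptidyl transferase centre and the exit tunnel, which opens at the inner membrane. In skeletal muscle this machinery serves oxidative metabolism, which differs between slow and fast fibres. The genes described here are the 76 rows of a table of 24648 rows whose symbol is Mrpl or Mrps followed by a number and at most 1 letter, with 46 of the large subunit and 30 of the small subunit by name.

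Total RNA was sequenced from skeletal muscle of rats aged 540 days in 12 libraries. The tested offspring came from dams on a diet of 6% protein during gestation and lactation (maternal protein restriction), and the others from control dams. The libraries are called by the number in their title and fall into 2 sets of numbers. Set 2 holds restriction libraries 32, 33 and 35 and control libraries 23, 28 and 29, and set 1 holds restriction libraries 12, 13 and 15 and control libraries 3, 8 and 9. The rats were male, and the series' description speaks of soleus, a slow muscle, and extensor digitorum longus, a fast one. Which muscle a library came from is not in the labels used here, and the sets are therefore given by number. Dams, litters and animals are not named either. The p-values thus rest on a spread between libraries that may be technical in part or narrowed by shared litters.

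Depth was 22829692 to 38313704 counts per library, and the 76 genes held 0.361% to 0.460% of them. All 11 slow fibre marker genes were lower in set 2 than in set 1 (summed level 1726 to 5630 CPM in set 2 and 93967 to 109030 CPM in set 1), and all 12 fast fibre markers were higher (146180 to 176510 CPM in set 2 and 4651 to 11579 CPM in set 1). CPM are counts scaled to a common library size by the TMM method. All 8 macrophage, 6 fibro-adipogenic progenitor and 5 adipocyte markers were also lower in set 2 (summed 58.2 to 117 CPM against 207 to 517, 257 to 362 against 452 to 827, and 3.80 to 8.26 against 34.2 to 123). Of 5 endothelial markers, 3 were higher and 1 was lower in set 2 (205 to 266 CPM against 172 to 255). The part of fibre type and of these other cells in the differences between sets was not tested, and in such bulk tissue fewer cells of a type cannot be told apart from less RNA per cell.

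Control library 23 of set 2 stood apart in the mitochondrial ribosomal protein genes. There, 70 of 75 tested members lay above the mean of its 3 libraries, with a median deviation of 0.37 on the log2 scale, and in control libraries 28 and 29 only 8 and 10 did, with medians of -0.18 and -0.16. In the 9 libraries of the other groups the median lay between -0.05 and 0.07. Library 23 was also high in nuclear respiratory chain subunit genes (median 0.41) and cytosolic ribosomal protein genes (median 0.34), while the median of all genes was -0.01. Its summed level of red blood cell markers was 1960 CPM, against 601 and 746 CPM in the other set 2 controls, and mitochondrial tRNA and rRNA rows took 6.36% of its counts, against 2.93% and 3.77%. Its TMM scaling factor of 0.815 was the lowest of the 12 libraries (0.968 to 1.100 in the others), and a lower factor gives higher CPM. As a share of raw counts the members held 0.4597% in library 23, near the 0.4594% of restriction library 13 of set 1. Within set 2 the share was lower in control libraries 28 and 29 (0.381% and 0.391%). It was also lower in restriction libraries 32, 33 and 35 (0.361%, 0.380% and 0.361%). The part of these features in its member levels was not tested. Results that rest on library 23 are given below with and without it.

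**Figure D1:**
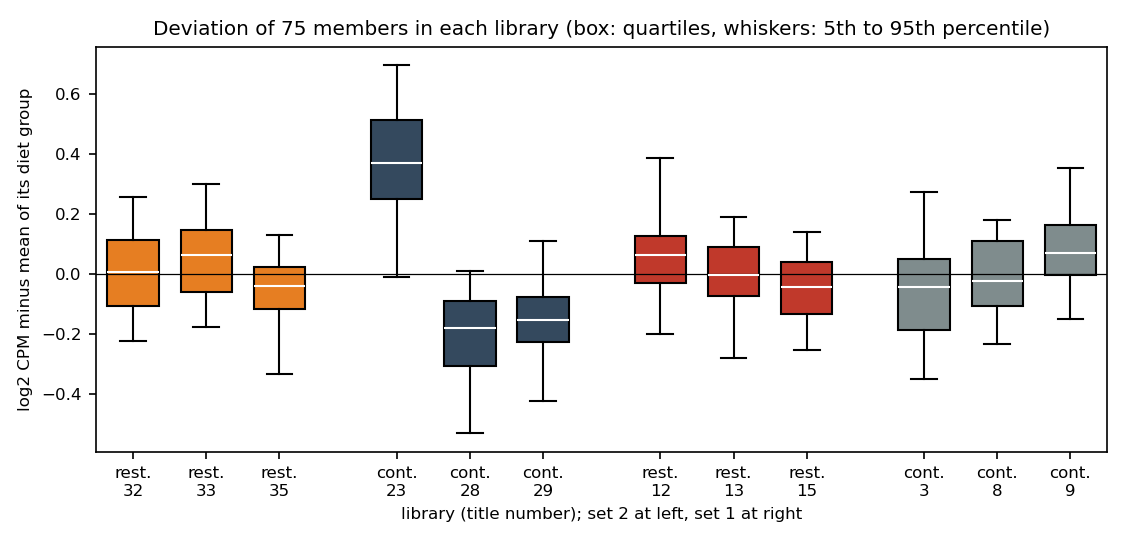
Deviation of the 75 tested members from the mean of their own group of 3 libraries (log2 CPM, vertical axis) in each library (horizontal axis, by title number, set 2 at left). Boxes give quartiles and whiskers the 5th to 95th percentile; control library 23 sits at a median of 0.37, and the 9 libraries outside its group sit between -0.05 and 0.07.

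The genes lay on 19 chromosomes in a RefSeq gene table of the assembly GRCr8, where 75 matched by symbol and 1 by a synonym. The synonym belongs to Mrps36, which RefSeq calls Kgd4, now known as a part of the 2-oxoglutarate dehydrogenase complex. RefSeq gave 63 start regions for 61 of the genes, each with 250 bases before the start and 50 after it. The letters CCGGAAG, the core of a site of GABP (NRF-2), stood on either strand in 33.3% of these regions, against 8.75% of all 33469 regions of that length. The letters AAGATGGC of YY1 stood in 23.8% against 3.17%, GCGCATGC of NRF-1 in 7.94% against 2.47%, and the E-box CACGTG in 9.52% against 6.42%. GABP, YY1 and NRF-1 are known to act on nuclear genes for mitochondria, and a match here describes letters, not binding. The member regions also held more of the pair CG (median 18, against 7 in all regions) and more G and C (median 55.7%, against 51.7%). The letters of GABP, NRF-1 and the E-box contain CG, and the shares were not matched for composition. Of the 61 genes, 18 (29.5%) had the start of another gene on the opposite strand within 1000 bases, against 11.4% of all genes.

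Here 4 stretches are shown, with matches in capitals, because they carry the motif most frequent among the members, both forms of the NRF-1 match, and the closest pairing of a small with a large subunit gene. The start of Mrps11 lies 234 bases from that of Mrpl46 on the opposite strand, so 1 stretch (GRCr8, chr1:142117030-142117263, plus strand) lies before both and holds none of the 4 motifs. The Mrpl32 stretch (chr17:55260441-55260650, plus strand) reaches to the opposite start of Psma2, a proteasome subunit gene, and has NRF-1 matches, as has that of Mrpl17 (chr1:169575700-169575949, minus strand). The Mrpl53 stretch (chr4:117172793-117173042, plus strand) has GABP matches, and that gene varied most among libraries.
Mrps11 and Mrpl46: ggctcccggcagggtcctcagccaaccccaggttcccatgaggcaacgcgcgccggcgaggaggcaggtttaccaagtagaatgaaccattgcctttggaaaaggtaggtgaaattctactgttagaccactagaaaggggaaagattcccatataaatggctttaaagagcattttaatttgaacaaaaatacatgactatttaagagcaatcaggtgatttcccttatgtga
Mrpl32: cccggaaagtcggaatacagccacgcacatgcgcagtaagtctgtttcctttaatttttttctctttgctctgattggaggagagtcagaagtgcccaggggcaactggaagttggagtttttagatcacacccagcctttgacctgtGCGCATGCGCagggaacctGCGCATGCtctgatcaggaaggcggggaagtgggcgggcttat
Mrpl17: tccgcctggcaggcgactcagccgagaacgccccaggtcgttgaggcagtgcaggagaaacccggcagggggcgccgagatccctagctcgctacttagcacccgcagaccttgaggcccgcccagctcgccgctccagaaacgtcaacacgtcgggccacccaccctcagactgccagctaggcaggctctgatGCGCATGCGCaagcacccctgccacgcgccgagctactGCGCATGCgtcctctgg
Mrpl53: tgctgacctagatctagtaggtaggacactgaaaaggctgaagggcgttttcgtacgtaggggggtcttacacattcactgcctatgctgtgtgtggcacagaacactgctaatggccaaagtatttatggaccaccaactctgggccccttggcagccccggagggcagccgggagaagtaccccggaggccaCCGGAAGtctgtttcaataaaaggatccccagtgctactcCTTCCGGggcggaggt

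The members differed between set 2 and set 1 by small amounts. With all libraries, 12 of 75 members (16.0%) passed the test of set 2 against set 1 at an adjusted p under 0.05 (edgeR's quasi-likelihood test), 7 higher and 5 lower in set 2, against 39.5% of all 14225 genes tested (19.9% higher and 19.6% lower). The log2 fold change was within 0.5 of 0 for 72 of 75 members, or 96.0%, and for 53.1% of all genes, and its median size was 0.15 in members and 0.46 in all genes. The median signed value was -0.01 in the large subunit and -0.04 in the small subunit. The number of members called depends on 1 control library. Without library 23 the fit called 30 of 76 members (39.5%), with 7 higher and 23 lower, against 44.1% of 14637 genes (21.6% higher and 22.5% lower), a share near that of all genes, and 11 of the 12 members were called in both fits. The size of the changes stayed small, with a median of 0.23 in members and 0.50 in all genes, and 67 of 76 members stayed within 0.5 of 0. In both fits all genes were not matched to the members for level.

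**Figure D2:**
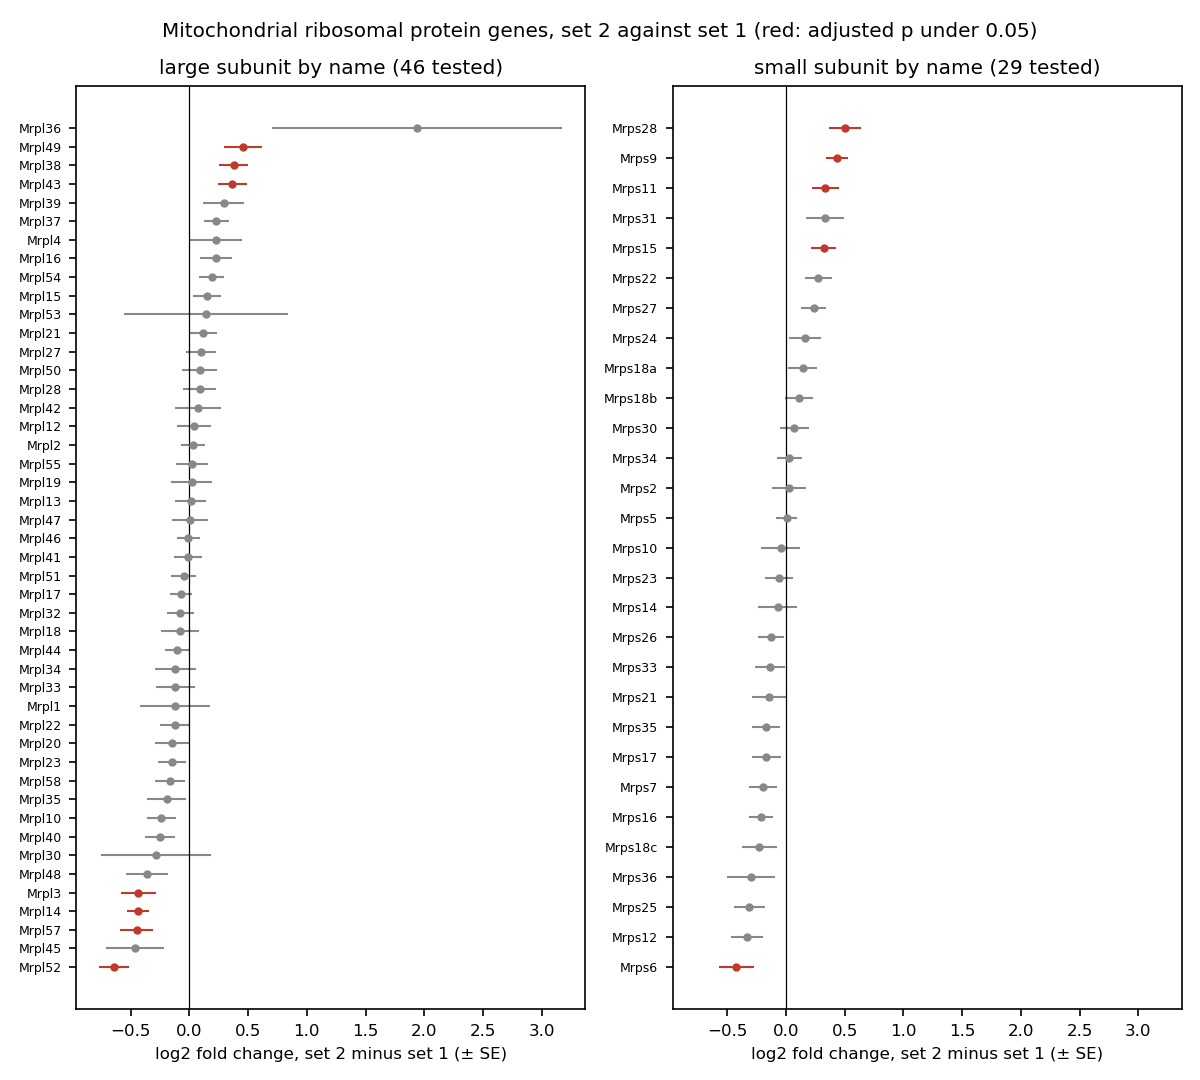
Log2 fold change of set 2 minus set 1 (horizontal axis, with SE) for each tested member of the large (left) and small (right) subunit, ordered by value. Red points passed an adjusted p of 0.05; 72 of 75 values lie within 0.5 of 0, and Mrpl36, at 1.94, has few counts and a wide SE.

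In the large subunit, 3 members were higher in set 2 and 4 were lower. Mrpl52, a subunit with no bacterial counterpart, had the lowest value of all members. Its level was 41.0 to 72.3 CPM in the 6 set 2 libraries (median 50.5) and 70.6 to 89.4 CPM in the 6 set 1 libraries (median 83.6), a log2 fold change of -0.64 ± 0.13 (SE, adjusted p 0.00105, edgeR). Only the highest set 2 value, that of library 23, reached the set 1 range. Mrpl14, a protein conserved from bacteria that the assembly factor Malsu1 contacts, had 82.6 to 110 CPM in set 2 (median 94.5). In set 1 it had 118 to 142 CPM (median 125), so the sets did not overlap (-0.44 ± 0.09, adjusted p 0.00184, edgeR). The share of all genes without overlap between sets is not given here, for this member or those below. Mrpl57, also specific to mitochondria, had 26.6 to 52.5 CPM in set 2 (median 30.05) and 38.6 to 52.4 CPM in set 1 (median 44.3). Its log2 fold change was -0.45 ± 0.14 (adjusted p 0.0193, edgeR), and without library 23 it was -0.62. Mrpl3, a core protein near the peptidyl transferase centre whose human variants are linked to cardiomyopathy, had 59.9 to 110 CPM in set 2 (median 64.4) and 79.4 to 116 CPM in set 1 (median 96.5). Library 23 was the one set 2 library inside the set 1 range, and the log2 fold change was -0.43 ± 0.15 (adjusted p 0.0303, edgeR), or -0.60 without that library.

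The 3 higher members of the large subunit, Mrpl49, Mrpl38 and Mrpl43, are all specific to mitochondria. Mrpl49 had 9.06 to 14.4 CPM in set 2 (median 10.7) and 5.99 to 9.95 CPM in set 1 (median 7.87), with a log2 fold change of 0.46 ± 0.16 (adjusted p 0.0331, edgeR). Mrpl38 had 84.1 to 136 CPM in set 2 (median 99.6) and 60.6 to 87.6 CPM in set 1 (median 81.4), with 0.38 ± 0.12 (adjusted p 0.0247, edgeR). The values of both overlapped between the sets. Mrpl43 had 11.5 to 15.9 CPM in set 2 (median 14.4) and 9.37 to 11.6 CPM in set 1 (median 11.3), with 0.36 ± 0.12 (adjusted p 0.0293, edgeR). Its gene overlaps that of Twnk, the mitochondrial DNA helicase. The library kit does not mark strand, so reads from exons that both genes share cannot be told apart. Overlap here is of whole gene spans in GRCr8, and overlap of exons was not checked. The same limit may hold for Mrps9, Mrps28, Mrpl14, Mrpl49, Mrps6 and Mrpl57 among the 12 called members, and for 19 of 76 members in all.

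In the small subunit, 4 members were higher in set 2 and 1 was lower. Mrps28, whose human variants are linked to mitochondrial disease, was 18.6 to 27.2 CPM in set 2 (median 21.6) and 12.3 to 20.3 CPM in set 1 (median 15.0), the highest log2 fold change among called members (0.50 ± 0.13, adjusted p 0.0089, edgeR). Mrps9, the counterpart of a bacterial protein that reaches the tRNA in the peptidyl site, was 60.4 to 84.1 CPM in set 2 (median 73.8) and 48.5 to 56.6 CPM in set 1 (median 54.3), with no overlap (0.43 ± 0.10, adjusted p 0.00265, edgeR). Mrps15, a conserved binder of the small rRNA, was 128 to 192 CPM in set 2 (median 129) and 106 to 122 CPM in set 1 (median 113). Its sets did not overlap either (0.32 ± 0.11, adjusted p 0.0295, edgeR). Mrps11, also conserved from bacteria, was 37.9 to 62.0 CPM in set 2 (median 45.7) and 29.5 to 41.8 CPM in set 1 (median 38.5), with 0.33 ± 0.11 (adjusted p 0.0295, edgeR). It was the 1 member called with all libraries and not called without library 23. Mrpl46, which shares its upstream stretch, was at -0.01 ± 0.10 (adjusted p 0.95, edgeR). Mrps6, the only lower member of the small subunit, was 14.7 to 25.5 CPM in set 2 (median 18.01) and 19.7 to 27.8 CPM in set 1 (median 25.8), with -0.42 ± 0.15 (adjusted p 0.0336, edgeR).

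Mrps28, Mrps9, Mrpl14 and Mrpl52 were called in 12 of 12 fits that each left out 1 library, Mrpl38 and Mrpl57 in 9, Mrpl43 in 8, Mrps15 in 7, Mrps11 in 6, Mrpl49 in 5, and Mrpl3 and Mrps6 in 4. Across those fits the number of members called higher ran from 2 (without restriction library 33) to 7, and the number called lower from 2 (without restriction library 13) to 23 (without control library 23). Among the members called lower without library 23 were Mrpl48 (-0.58, adjusted p 0.00211), Mrps12 (-0.49, adjusted p 0.00115), Mrps25 (-0.42, adjusted p 0.00975) and Mrps18c (-0.41, adjusted p 0.0054), all by edgeR and chosen here after their values were seen. Of the 12 called with all libraries, 7 have a bacterial counterpart (4 higher and 3 lower, of 44) and 5 are specific to mitochondria (3 higher and 2 lower, of 30). Among the called members with a RefSeq start region, the GABP letters stood in the regions of Mrpl52 and Mrpl57, before the start, and of Mrpl3, after it, all lower in set 2. They stood in none of the regions of Mrpl49, Mrps9, Mrps11 and Mrps15, all higher, or of Mrpl14 and Mrps6, both lower. Over all members the letters stood in 33.3% of the regions, and a link of motif to direction was not tested. A row named mrpl11 in lower case, outside the rule with mrpl9 and mrpl24, was also lower in set 2 (-0.52 ± 0.13, adjusted p 0.00487, edgeR).

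With all libraries, most members known for a role beyond the core or for human disease did not pass, and some passed when 1 library was left out. Mrpl12, which also binds the mitochondrial RNA polymerase, was 126 to 213 CPM in set 2 and 117 to 189 CPM in set 1 (0.04 ± 0.15). Mrpl58, a peptidyl-tRNA hydrolase that rescues stalled ribosomes, was 45.9 to 83.1 CPM in set 2 and 56.2 to 67.6 CPM in set 1 (-0.17 ± 0.13). Mrps12, the counterpart of the bacterial protein that governs decoding accuracy, was 26.5 to 56.0 CPM in set 2 and 36.2 to 51.6 CPM in set 1 (-0.33 ± 0.14, adjusted p 0.0739, edgeR). Without library 23, Mrpl58 (-0.31, adjusted p 0.00862) and Mrps12 (-0.49, adjusted p 0.00115) were called lower in edgeR. Mrpl45, which tethers the ribosome to the inner membrane, stood at -0.46 ± 0.24, and it was called without control library 3 (-0.62, adjusted p 0.0202, edgeR). Of the proteins with human disease variants, Mrps22 was at 0.28 ± 0.11 (adjusted p 0.071, edgeR), Mrps34 at 0.03 ± 0.10, Mrps16 at -0.21 ± 0.11 and Mrpl44, an RNase III relative, at -0.10 ± 0.10. Of these, Mrps16 was called without library 23 (-0.28, adjusted p 0.0275, edgeR). Mrps27, a pentatricopeptide repeat protein, was at 0.24 ± 0.11 (adjusted p 0.0956, edgeR).

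Some names do not give the subunit. In the structure of the mammalian mitochondrial ribosome, Mrps18a and Mrps30 sit in the large subunit, and they were at 0.14 ± 0.12 and 0.07 ± 0.12 in set 2 against set 1. The paralogs Mrps18b and Mrps18c, relatives of the same bacterial protein that sit in the small subunit, were at 0.11 ± 0.12 and -0.23 ± 0.15. Mrps18c was called without library 23, as given above. Grouped by structure in place of name, the medians were -0.0023 in the 48 large and -0.05 in the 26 small subunit members. The summed level of large over small subunit members was 1.69, 1.76 and 1.71 in restriction libraries 32, 33 and 35, and 1.76, 1.71 and 1.67 in control libraries 23, 28 and 29. In set 1 it was 1.73, 1.79 and 1.79 in restriction libraries 12, 13 and 15, and 1.74, 1.86 and 1.80 in control libraries 3, 8 and 9. The ratio thus kept within 1.67 to 1.86 in all 12 libraries, also in library 23, where both sums were highest (3597 CPM large and 2043 CPM small). In the other 11 libraries the sums ran from 2239 to 2803 CPM and from 1310 to 1622 CPM.

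The RNAs of the mitochondrial ribosome itself were higher in set 2, as rows added after the tables were seen. The small rRNA, mt-Rnr1, had 2208, 2382 and 3314 CPM in restriction libraries 32, 33 and 35 and 4362, 2482 and 2634 CPM in control libraries 23, 28 and 29. In set 1 it had 2137, 2119 and 2309 CPM in restriction libraries 12, 13 and 15 and 1684, 1651 and 1197 CPM in control libraries 3, 8 and 9. The log2 fold change of set 2 over set 1 was 0.67 ± 0.16 (adjusted p 0.00529, edgeR), or 0.50 without library 23. The large rRNA, mt-Rnr2, had 1351 to 2181 CPM in set 2 and 1062 to 1293 CPM in set 1, with no overlap (0.50 ± 0.13, adjusted p 0.00816, edgeR). How the library preparation carried these RNAs is not given in the sources used here, and their levels and those of the protein mRNAs are not compared.

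Other genes of mitochondrial translation were counted in the same fit. Of 12 translation factor genes, 5 were higher in set 2 and none was lower (41.7% against 39.5% of all genes), with a median log2 fold change of 0.28. They were Guf1, a relative of the bacterial factor LepA (0.71 ± 0.14), Tsfm and Gfm1, elongation factors (0.70 ± 0.14 and 0.68 ± 0.11), Mtrf1, a release factor (0.48 ± 0.15), and Tufm, the elongation factor Tu that Tsfm recharges (0.43 ± 0.09). These 5 were also called without library 23. Of 5 ribosomal proteins with other names, 2 were called (40.0%, near the 39.5% of all genes). Gadd45gip1 of the large subunit was higher (0.46 ± 0.15) and Dap3, a GTP-binding protein of the small subunit, was lower (-0.43 ± 0.12). Of 23 assembly and rRNA genes, 7 were called (30.4%, against 39.5% of all genes), 4 of them higher, among them the pseudouridine synthase Trub2 (0.47 ± 0.12) and the helicase Ddx28 (0.44 ± 0.14). A further 3 were lower, with Ngrn at -0.71 ± 0.10, the GTPase Mtg1 at -0.41 ± 0.14 and Rbfa at -0.26 ± 0.10.

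Of 10 genes of mitochondrial transcription and mRNA, 4 were called (40.0%, near the 39.5% of all genes). Of them 3 were higher (Pde12, which trims poly(A), at 0.98 ± 0.37, the mRNA stabiliser Lrpprc at 0.32 ± 0.11, and Twnk, named Peo1 in the table, at 0.29 ± 0.11), and the elongation factor Tefm was lower (-0.50 ± 0.17). Of 3 genes of membrane insertion, 2 were called (66.7%, against 39.5% of all genes). Letm1 was higher (0.62 ± 0.16) and Oxa1l, the insertase at the exit tunnel, was lower (-0.35 ± 0.10). Of 9 regulators, 4 were called (44.4%, also near the share of all genes). The coactivators Ppargc1b (1.10 ± 0.26) and Ppargc1a (0.69 ± 0.18) and the factor Yy1 (0.68 ± 0.18) were higher and Myc was lower (-1.20 ± 0.43). Nrf1 (0.18 ± 0.15) and Gabpa (0.25 ± 0.17) did not pass. Citrate synthase, Cs, a matrix enzyme used as a measure of mitochondrial content, was at 0.89 ± 0.16 (adjusted p 0.000664, edgeR).

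The respiratory chain, whose core this ribosome makes, and the cytosolic ribosome were counted beside it. Of 69 nuclear respiratory chain subunit genes, 8 were higher and 2 were lower in set 2 (14.5%, against 39.5% of all genes, median -0.03). Atp5a1 at 0.64 ± 0.12 and Sdha at 0.58 ± 0.11 were the highest. Without library 23 the counts were 7 higher and 23 lower of 69 (43.5%, against 44.1% of all genes). In the mitochondrial ribosomal proteins they were 7 and 23 of 76 (39.5%), and both shares lay near that of all genes. Of 86 cytosolic ribosomal protein genes, none was higher and 68 were lower (79.1%, against 19.6% of all genes lower, median -0.60). Without library 23, 73 were lower (84.9%, against 22.5% of all genes, median -0.69). Among the lowest were Rpl3 (-0.997 ± 0.127) and Rps3 (-0.98 ± 0.12).

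**Figure D3:**
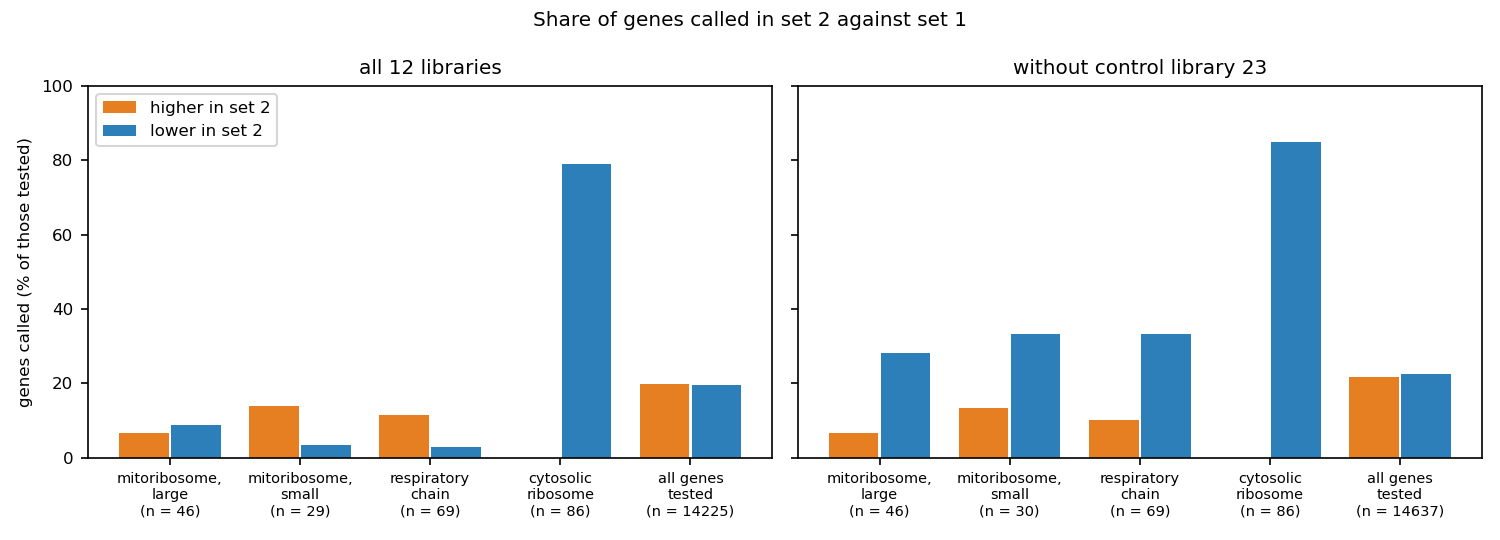
Share of tested genes called higher (orange) and lower (blue) in set 2 against set 1 (vertical axis, % of those tested) in each gene list (horizontal axis), with all 12 libraries at left and without control library 23 at right. All members together moved from 16.0% to 39.5% called when library 23 was left out, and all genes from 39.5% to 44.1%. Cytosolic ribosomal protein genes were mostly lower in both panels.

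With all libraries, maternal diet gave no call in any member in edgeR, and the 1 call made without library 23, of Mrpl53 in set 1, is described with that gene. Averaged over both sets, the median log2 fold change of restriction minus control was -0.06 in the large subunit and -0.11 in the small subunit, with 0 of 75 members called by edgeR, against 0.00703% of all genes (1 gene). Without library 23 these medians were 0.049 and -0.010, so the direction in the large subunit turned. Within set 2, 0 were called (0% of all genes) and the medians were -0.30 and -0.27. Within set 1, 0 were called (0.00703% of all genes) and the medians were 0.13 and 0.08. The number of members at an unadjusted p under 0.05 was 5 for the average, 12 in set 2 and 8 in set 1. DESeq2 called 1 member in the average over sets, Mrpl53 (55 of the 11455 genes with an adjusted p, or 0.48%), and none in either set, and limma-voom called none in these 3 contrasts.

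Most of the lower level in set 2 went with control library 23. With it, 74 of 75 members lay below 0, and without it 55 of 76 did, with medians of -0.04 in the large and -0.08 in the small subunit. The difference between sets in the diet effect, set 2 minus set 1, had medians of -0.37 and -0.40 with all libraries and of -0.19 and -0.21 without library 23, and 0 members were called by edgeR (0% of all genes, 13 members at an unadjusted p under 0.05), as by DESeq2 and limma-voom. In set 1 the restriction libraries were slightly higher, with 58 of 75 members above 0. Respiratory chain genes and cytosolic ribosomal protein genes had like medians in both sets (-0.29 and -0.22 in set 2, 0.13 and 0.12 in set 1), and without library 23 the set 2 medians were -0.079 and -0.022. These within-set values share no library between sets, but all contrasts come from 1 fit.

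**Figure D4:**
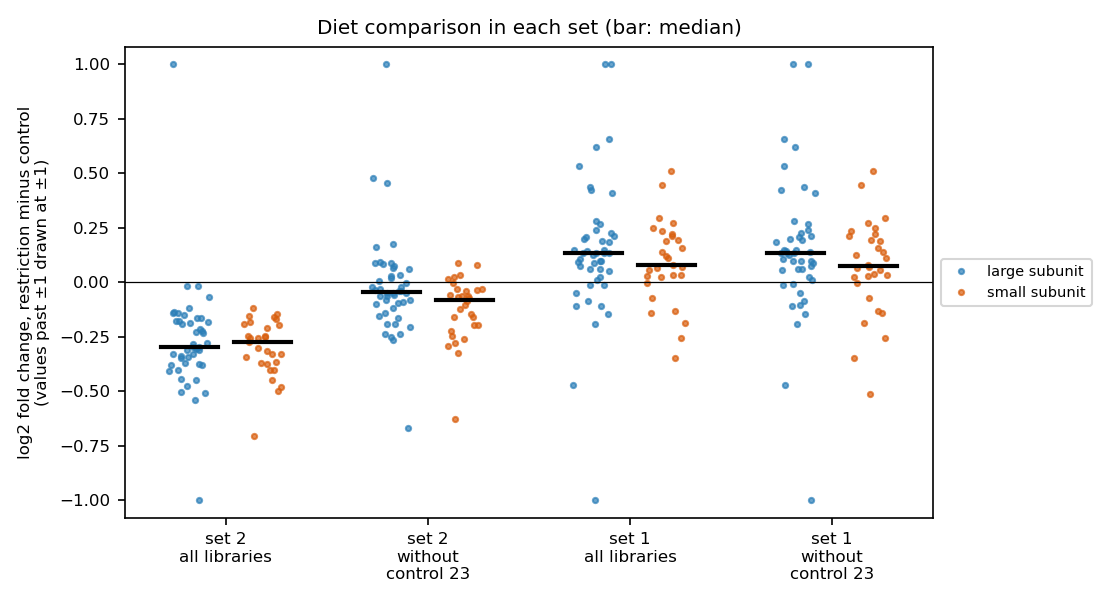
Log2 fold change of restriction minus control (vertical axis, values past 1 in size drawn at 1) of each member in set 2 and set 1, with all libraries and without control library 23. Blue points are large and orange points small subunit members, and bars are medians; the set 2 medians of -0.30 and -0.27 were -0.04 and -0.08 without that library.

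Of the members with the smallest p in each subunit, none passed in edgeR. Mrps2, conserved from bacteria, had 16.5, 16.8 and 11.7 CPM in restriction libraries 32, 33 and 35, against 26.9, 22.4 and 24.0 CPM in control libraries 23, 28 and 29. The set 1 values were 14.9, 19.5 and 17.1 CPM in restriction libraries and 17.6, 17.4 and 26.5 CPM in control libraries. The diet groups did not overlap in set 2 and did in set 1. Choice by a small p favours such a gap, and the share of all genes with one is not given here. The average log2 fold change was -0.48 ± 0.15 (adjusted p 0.474, edgeR). In set 2 alone it was -0.70 ± 0.21 (adjusted p 0.458, edgeR), and -0.63 without library 23. Mrps18a averaged -0.32 ± 0.12, Mrps35 -0.28 ± 0.12 and Mrpl37 -0.23 ± 0.11, with adjusted p of 0.56, 0.589 and 0.65 (edgeR), and without library 23 they were at -0.24, -0.17 and -0.16. In set 2, Mrps17 (-0.48 ± 0.18), Mrps16 (-0.40 ± 0.15), Mrpl10 (-0.40 ± 0.17) and Mrpl2 (-0.34 ± 0.14) were also among the smallest p and did not pass. Without library 23 these 4 were at -0.25, -0.28, -0.19 and -0.26.

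Mrps27 carried the smallest p of the small subunit in set 1. Such a choice favours groups without overlap, whose share of all genes is not given here. Mrps27 had 39.5, 36.5 and 40.4 CPM in restriction libraries 12, 13 and 15. In control libraries 3, 8 and 9 it had 28.0, 30.5 and 23.3 CPM, without overlap (0.51 ± 0.15, adjusted p 0.526, edgeR). In set 2 it had 35.8, 36.5 and 36.0 CPM in restriction libraries and 47.6, 38.8 and 35.4 CPM in control libraries (-0.17 ± 0.15, or -0.04 without library 23). Also in set 1, Mrpl39 was at 0.62 ± 0.25, Mrpl21 at 0.53 ± 0.16, Mrps33 at 0.45 ± 0.18 and Mrps35 at -0.35 ± 0.17. For the difference between sets, Mrpl10, a stalk protein, had the smallest p of all members (-0.81 ± 0.25, adjusted p 0.416, edgeR). It had 22.9, 28.5 and 23.3 CPM in set 2 restriction libraries and 41.8, 27.5 and 29.4 CPM in set 2 controls. Set 1 gave 36.0, 43.8 and 37.2 CPM in restriction libraries and 30.4, 28.4 and 29.2 CPM in controls. Mrpl50 (-0.88 ± 0.30), Mrps12 (-0.79 ± 0.28), Mrpl22 (-0.75 ± 0.26), Mrps27 (-0.68 ± 0.21) and Mrps11 (-0.62 ± 0.23) followed. Without library 23 these 6 lay between -0.63 and -0.47.

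Mrps5 was singled out after its values were seen, because its diet groups parted in opposite directions in the sets. The share of all genes that part in this way is not given here, so the pattern cannot be called particular to Mrps5. It had 75.7, 74.998 and 68.2 CPM in set 2 restriction libraries and 87.1, 76.9 and 78.2 CPM in set 2 controls, with restriction lower. In set 1 it had 82.7, 77.0 and 86.7 CPM in restriction libraries and 68.2, 70.2 and 74.2 CPM in controls, with restriction higher. The test of that difference gave -0.36 ± 0.18 (adjusted p 0.539, edgeR). The other members named for their roles had average diet effects from -0.50 ± 0.24 (Mrpl45) to 0.17 ± 0.11 (Mrps27). Among them, Mrpl12 was at -0.20 ± 0.15, Mrpl3 at -0.18 ± 0.15, Mrps16 at -0.18 ± 0.11, Mrps34 at -0.17 ± 0.10 and Mrps30 at -0.12 ± 0.12. Mrps22 was at -0.12 ± 0.11, Mrps12 at -0.10 ± 0.14, Mrpl58 at -0.10 ± 0.13, Mrps18b at -0.10 ± 0.12, Mrps18c at -0.03 ± 0.15 and Mrpl44 at 0.03 ± 0.10. None of these passed the test (adjusted p of 0.655 or more, edgeR).

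Most members were steady among the libraries of a group. Such spread depends on level, and all genes are given beside the members without matching for level. The SD of log2 CPM within groups had a median of 0.23 over members and 0.36 over all genes, and it was above 0.5 in 5 of 75 members (6.67%) and in 33.6% of all genes. Those 5 were Mrpl53, Mrpl36, Mrpl1, Mrpl30 and Mrpl45. Mrpl53, a large subunit protein specific to mitochondria, had 1.21, 0.861 and 0.596 CPM in restriction libraries 32, 33 and 35, and 15.1, 0.705 and 0.567 CPM in control libraries 23, 28 and 29. The set 1 values were 0.714, 0.269 and 0.651 CPM in restriction libraries 12, 13 and 15, and 11.4, 2.22 and 7.80 CPM in control libraries 3, 8 and 9. The 4 highest libraries were all controls, and set 2 controls 28 and 29 stood at the restriction level. Its average diet effect was -3.15 ± 0.74 (adjusted p 0.324, edgeR), and DESeq2 gave -3.17 (adjusted p 0.0254). In set 1 it was -3.71 ± 1.07 (adjusted p 0.526, edgeR). Without library 23 the set 1 value was unmoved at -3.71 and passed (adjusted p 0.0313, edgeR, against 0.15% of all genes called). Library 23 is not part of that contrast, and leaving it out lowered the SE from 1.07 to 0.59 through the shared fit. In the fits that left out any other library, the set 1 adjusted p was 0.383 to 0.974 (edgeR). The set 2 value without library 23 was 0.48 in place of -2.59. Its nearest gene, Ccdc142, was low throughout, with 0.202, 0.665 and 1.85 CPM in control libraries 3, 8 and 9. It had 0.0793, 0.0768 and 0 CPM in restriction libraries 12, 13 and 15, so it too was higher in set 1 controls. In set 2 it had at most 0.297 CPM, and 0 in control library 23.

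**Figure D5:**
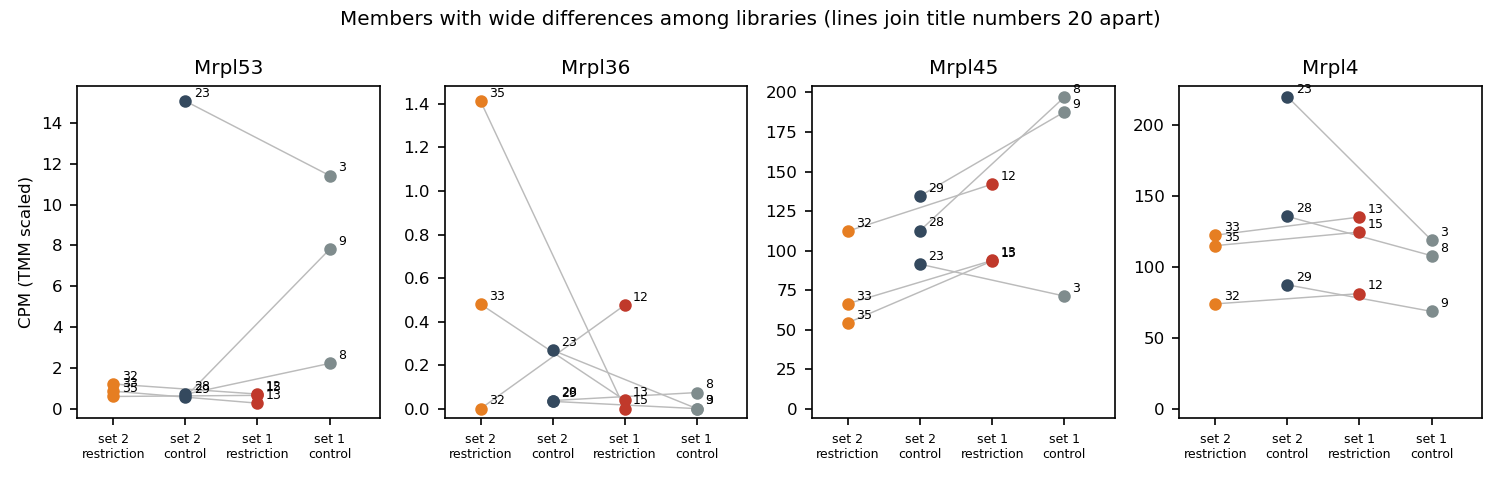
Level of 4 members in each library (vertical axis, CPM; scales differ) by set and diet group (horizontal axis). Points carry title numbers and lines join numbers 20 apart; Mrpl53 reaches 15.1 CPM in control library 23, and Mrpl4 keeps the same order of libraries in both sets.

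Mrpl36, a short conserved protein, had few counts, with 0, 0.480 and 1.41 CPM in set 2 restriction libraries, 0.268, 0.0371 and 0.0333 CPM in set 2 controls, and at most 0.476 CPM in set 1. Its effects (2.64 ± 1.23 for diet, 1.94 ± 1.24 for set) did not pass, and its gene overlaps Ndufs6, which had 11.1 to 42.4 CPM. Mrpl1 (1.57 to 5.20 CPM) and Mrpl30 (0.3001 to 1.31 CPM) were also low, and they have 2 and 9 named pseudogenes, with which reads could be shared. Mrpl45 was high in level and still variable. It had 112, 66.4 and 54.3 CPM in restriction libraries 32, 33 and 35 and 91.4, 113 and 135 CPM in control libraries 23, 28 and 29. Set 1 gave 142, 93.7 and 93.4 CPM in restriction libraries 12, 13 and 15 and 71.2, 197 and 188 CPM in control libraries 3, 8 and 9.

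Mrpl4, next in spread with an SD of 0.48, had 73.8, 122 and 115 CPM in restriction libraries 32, 33 and 35 and 220, 135 and 87.2 CPM in control libraries 23, 28 and 29. In set 1 it had 81.0, 135 and 124 CPM in restriction libraries 12, 13 and 15 and 119, 108 and 68.5 CPM in control libraries 3, 8 and 9. Libraries with title numbers 20 apart thus held the same rank in both sets and both diets. For Mrpl45 the ranks matched in the restriction libraries, and in controls the lowest libraries, 23 and 3, were 20 apart. No label says what numbers 20 apart share, and these genes were picked after their values were seen. Mrps21l, the only member below the low-count filter, had 1 to 16 counts per library, or 0.0384 to 0.548 CPM, and its diet and set effects were not tested with all libraries.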

How the data were processed

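Libraries of 12 skeletal muscle samples were prepared with the TruSeq RNA kit after Trizol extraction, per the labels' protocols. Trimmomatic, HISAT2, featureCounts, DESeq2 and the build Rnor_6.0 are named in the submitters' processing notes, with no version, order or annotation release. The authors deposited raw counts, whole numbers for each gene and library. A further table of theirs was left out, since it holds the same counts after division by a single number in each library. Members and companion lists were chosen with earlier results of these data known, so no p was computed over a list.

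Genes were filtered with filterByExpr over 4 groups of 3 libraries, which kept 14225 genes and 75 of 76 members. After TMM scaling, a mean for each group was fitted in edgeR 4.0.16 (R 4.3.3), with quasi-likelihood tests, Benjamini-Hochberg adjustment over all genes tested and a threshold of 0.05. Contrasts were restriction minus control in each set, averaged and differenced, and set 2 minus set 1. The code was tested on simulated data. Alternatives were DESeq2 1.42.0, limma-voom (limma 3.58.1), other scalings and filters, a replicate block, fits of 1 set and leaving out each library. Within a group, libraries differed by more than counting noise.

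Members named were, in the set comparison, up to 6 called in each direction per subunit, in each diet contrast the 3 with the smallest p per subunit, 14 members fixed for their roles or as paralogs, and members that failed the filter. From companion lists, up to 3 called genes per direction and list were named, and any others were chosen after their values were seen. Start regions come from RefSeq (GRCr8), a build other than that of the counts, and coordinates are given in GRCr8 alone.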

Additional observations from a re-analysis of the deposited data

How the results depend on the processing

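Of the member counts and subunit medians, those that moved under another setting did so as follows. DESeq2 called 1 member lower in the average diet effect, against 0 in edgeR. With library size alone as scaling, which moved the median of all genes to -0.11, set 2 against set 1 gave 2 members higher and 15 lower, against 7 and 5. Without 1 library the members called higher ranged from 2 to 7 and lower from 2 to 23, and those called lower for diet in set 1 from 0 to 1. Subunit medians without 1 library ranged, large then small, from -0.12 to 0.03 and -0.09 to 0.04 for set, from -0.12 to 0.05 and -0.15 to -0.01 for average diet (the highest without library 23), from -0.384 to -0.0449 and -0.363 to -0.0794 for diet in set 2, from 0.08 to 0.18 and 0.04 to 0.16 for diet in set 1, and from -0.49 to -0.19 and -0.49 to -0.21 for the difference. The causes were not tested.

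With a replicate block on title numbers 20 apart, set 2 against set 1 gave 7 members higher and 8 lower. For the difference in diet effect it gave medians of -0.34 (large) and -0.40 (small) and no call, and summing such pairs gave -0.05 and -0.08 for the average diet effect. Over all genes the deviations of such pairs correlated at 0.0791 to 0.175, over 0.1 in 4 of 6 pairs. In 5 of 6 pairs the set 1 library correlated best with the library 20 apart, and library 13 correlated best with another (0.138 against 0.0979). Over the members alone the correlations were 0.425, 0.372 and 0.149 for control libraries 3, 8 and 9 with those 20 apart. For restriction libraries 12, 13 and 15 they were -0.544, 0.0487 and -0.492. Mrpl36, which has few counts, deviated by 1.75 and -2.44 in libraries 12 and 32 and by -1.19 and 1.94 in libraries 15 and 35. A single such gene can weigh heavily on a correlation over members, and no correlation was computed without it. The hint of pairing is thus read from all genes alone, and no label gives it. No paired analysis was possible for diet within a set, since its groups share no numbers. Among the named members, 1178 of the alternative values kept their direction and side of the threshold. A further 49 lost the call, 13 gained it and 18 moved, and none reversed in a called value. All 49 losses were in set 2 against set 1, where 429 values kept, 11 gained the call and 11 moved. Only the 12 members called there could lose a call. The diet contrasts and their difference had no called member in the main fit, so no call could be lost in them. Depth limits Mrpl36, Mrpl30 and Mrps21l, whose counts are few.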
